A study of Mus musculus with 74 samples.

Results

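At the end stage of disease, macrophages of the sciatic nerve were compared with microglia of the spinal cord in 8 of the 74 libraries of a mouse study of amyotrophic lateral sclerosis. The comparison holds the 4 end-stage nerve libraries (called MP in the labels, replicates 1 to 4) and the 4 end-stage microglial libraries (MG, replicates 1 to 4) of the non-grafted mice, chosen by their labels and by no measured value. All 8 came from female mutant hSOD1-G93A mice on a C57BL/6J background, which carry a mutant human SOD1 transgene, at a mean age of 169.4 days. The transgene is therefore shared by both groups, and no library here is a healthy control. The mice were perfused with PBS, the tissues were dissociated in the cold without enzymes, myelin was removed on a Percoll gradient, and cells were taken with magnetic beads against CD11b. A microglial library came from 1 spinal cord of 1 mouse and a nerve library from the 2 sciatic nerves of 1 mouse. The labels' protocol gives 100000 to 180000 cells per microglial sample and 30000 to 50000 per nerve sample. Pre-symptomatic G93A mice (mean age 50.8 days, 4 MG and 3 MP libraries, each of these MP pooling the nerves of 2 mice) are used for a comparison of stages, and a separate set of G93A mice received G93A bone marrow at onset and was sampled at end stage (3 MG and 3 MP). Another 4 nerve libraries of end-stage age have labels that contradict each other on genotype and were not used here.

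CD11b is the integrin alpha M chain encoded by Itgam, and it sits on microglia, macrophages, monocytes and neutrophils alike, so the bead step does not separate these cells. Microglia settle in the brain and spinal cord before birth and keep an identity program of receptors and transcription factors such as P2ry12, Tmem119 and Sall1, while macrophages of peripheral nerve are partly renewed from blood monocytes. In this disease model both cell types react along degenerating motor neurons, in the spinal cord around the cell bodies and in the nerve around the axons. Reactive microglia switch on a disease-associated program that includes Apoe, Trem2, Spp1 and lysosomal proteases.

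Values are FPKM (fragments scaled to transcript length and to the total mapped). A difference below is nerve minus microglia, taken on log2(FPKM + 1) and given with its SE. Adding 1 makes the change of weakly expressed genes look smaller than it is. A gene was tested if its mean over the 8 libraries was at least 1 FPKM, and it was called higher or lower in nerve at a Benjamini-Hochberg adjusted p under 0.05 in limma. Errors of FPKM are SD over the 4 libraries of a group. Nerve library 3 stands for MP replicate 3, and so on.

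Cell type markers are given before the comparison of single genes. The summed FPKM of 24 neutrophil genes was 209200, 200800, 223000 and 120100 in nerve libraries 1 to 4, which was 27.8%, 27.2%, 31.5% and 12.2% of all FPKM in them. In microglial libraries 1 to 4 the same sum was 850.9, 2302, 702.2 and 54360. All 4 nerve libraries lay above every microglial library, and microglial library 4 stood far above the other microglial libraries. The 20 core macrophage markers summed to 7517, 9380, 10570 and 6063 in nerve and to 47670, 39910, 43650 and 18950 in microglia, so the groups did not overlap and microglial library 4 was the lowest of its group. Core macrophage genes made up between 0.615% and 1.49% of a nerve library's FPKM. The nerve libraries therefore held RNA of core macrophage genes, but neutrophil genes took a far larger share, and in nerve library 4 hemoglobin genes took more still. The core list includes Spi1, which neutrophils share, and Tyrobp, the adaptor of many myeloid receptors. Its sum thus does not separate macrophage RNA from that of other myeloid cells. The libraries from nerve are called nerve libraries below.

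Glial, erythroid and nerve tissue RNA was unevenly spread. The 18 astrocyte genes summed to 5.26, 2039, 17.1 and 18.4 FPKM in nerve libraries 1 to 4 and to 793.5, 2800, 2603 and 7319 in microglia, so nerve library 2 lay inside the microglial range. The 10 markers of central myelin followed the same pattern, with 0, 573, 5.44 and 5.34 FPKM in nerve. Hemoglobin genes made up 7.15%, 5.00%, 1.17% and 24.9% of the 4 nerve libraries and 2.56% of microglial library 4. The 10 markers of peripheral myelin stayed at 3.96 to 16.7 FPKM in nerve and 13.2 to 23 in microglia, which overlapped, and Pmp2 and Cldn19, which mark myelinating Schwann cells, were listed at 0 in all 4 nerve libraries. Thus 3 libraries stand apart: nerve library 2 with central glial RNA, nerve library 4 with erythroid RNA, and microglial library 4 with neutrophil, erythroid and glial RNA. Counts that lead most paragraphs are also given without these 3 libraries, a choice made after the data were seen. FPKM sums ran from 707190 to 986659 in nerve and from 554148 to 589035 in microglia, and read depth is unknown.

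**Figure D1:**
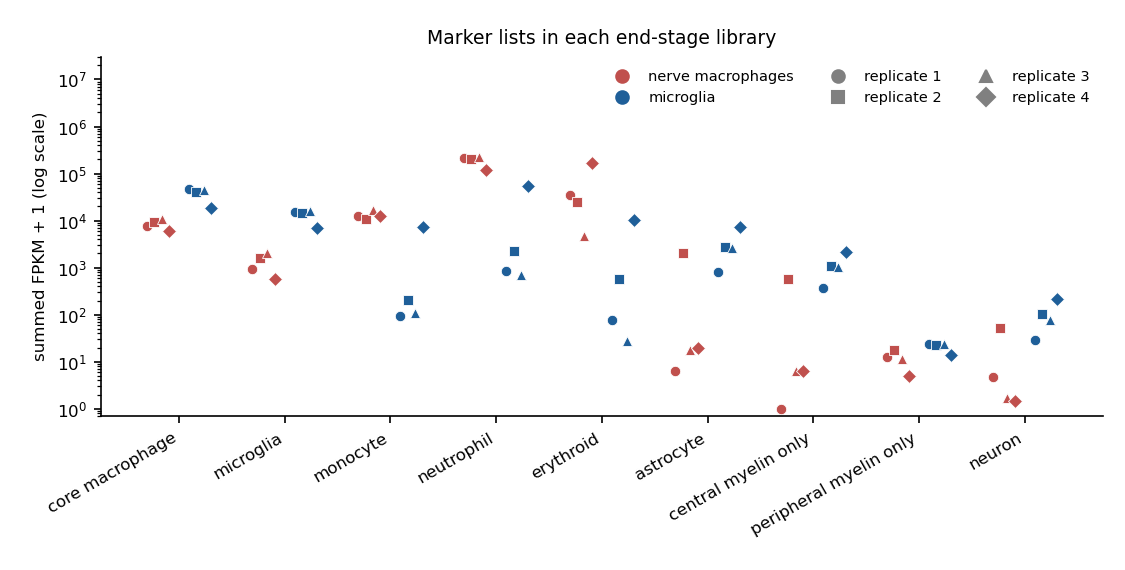
Summed FPKM plus 1 of cell type marker lists (log axis) in the 4 nerve libraries (red) and the 4 microglial libraries (blue) at end stage, with the marker shape giving the replicate. Neutrophil sums lay between 120100 and 223000 in nerve, microglial library 4 reached 54360, and nerve library 2 reached 2039 for the astrocyte list.

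Across the 10897 genes tested, 1511 (13.9%) were higher and 2492 (22.9%) were lower in nerve, 36.7% in all. Of these, 1218 were at least 2-fold higher and 2231 at least 2-fold lower, and the median difference over all genes was −0.30. Without the 3 libraries that stand apart, 2104 were higher and 3270 lower of 10674 tested, with 1435 of 1492 higher and 2244 of 2447 lower genes called in the same direction again. Leaving out microglial library 2 or 3 alone lowered the total to 2485 and 2505 genes called. In bulk RNA of this kind, fewer cells of a type and less RNA per cell cannot be told apart. Since core macrophage genes were so much lower in nerve, all differences were also computed on a second scale. Every library was set to the same mean log2 level of the core macrophage list. The result is called the core-scaled difference and is relative to the RNA of core macrophage genes. That scaling moved the median of all genes up by 2.19 to 1.81 and left 6652 genes higher and 232 lower of 11086 tested. Core-scaled counts and medians of the lists below are to be read beside these values. Because core scaling raises nerve relative to microglia, it is no check on the 1511 higher genes, all of which stayed higher. Of the genes that were lower as deposited, 470 became higher. Setting all libraries to the same FPKM sum moved the median down by 0.41 and gave 940 higher and 4373 lower, so that the higher share of calls went from 37.8% to 17.7%.

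Genes of microglial identity were the lowest in nerve. Of 28 microglial genes tested, 26 were lower and 1, Csf3r, was higher. Csf3r is the receptor for granulocyte colony-stimulating factor and also stands in the neutrophil list. The median difference was −3.80, and −2.08 core-scaled against a core-scaled median of 1.81 over all genes. Without the 3 libraries that stand apart, 27 of 28 were lower. The purinergic receptor P2ry12 (chr3:59216271-59262985, mm10), which guides microglial processes to sites of damage, showed the largest fall among called genes with non-overlapping groups and at least 5 FPKM in microglia. It was listed at 0, 0, 24.4 and 0 FPKM in nerve libraries 1 to 4 and at 247.2, 366.4, 292.1 and 122.3 in microglial libraries 1 to 4, a difference of −6.74 ± 0.98 (adjusted p = 0.00173). Nerve library 3 alone carried it, and without that library the difference was −7.90.

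Tmem119, a surface protein used to mark microglia, had 0, 33.9, 30.4 and 2.73 FPKM in nerve against 299.1, 379.5, 366 and 152.9 in microglia (−5.15 ± 1.03, adjusted p = 0.00525). Nerve libraries 2 and 3 carried most of it, all 4 lay below every microglial library, and leaving out nerve library 1, 2 or 3 gave −4.15, −5.86 and −5.80. Sall1, the transcription factor that maintains microglial identity, had 0, 0, 0.82 and 0 FPKM in nerve and 9.62, 14.2, 12.6 and 6.69 in microglia (−3.30 ± 0.36, adjusted p = 0.000894). Again nerve library 3 was the single nerve library above 0. Gpr34, a lysophospholipid receptor of microglia, had 0, 4.42, 29.9 and 0 FPKM in nerve and 406.3, 452.5, 402.6 and 161.8 in microglia (−6.53 ± 0.99, adjusted p = 0.00194), with −5.91 without nerve library 1 or 4 and −7.56 without library 3. The fractalkine receptor Cx3cr1, which many monocytes and tissue macrophages also carry, differed by −4.46 ± 1.12 (adjusted p = 0.0134), and its core-scaled difference of −2.21 did not pass (adjusted p = 0.113). Nerve library 4 had 0.06 FPKM of it, and without that library the difference was −3.14; without nerve library 3 it was −5.14. For P2ry12, Tmem119, Sall1 and Siglech the core-scaled differences of −5.31, −3.15, −2.10 and −2.69 still passed.

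Signals that shape this identity were lower as well. Of 18 genes of the TGF-beta pathway tested, 10 were lower and 1 was higher (median −1.39), and 12 were lower and 2 higher of 17 without the 3 libraries that stand apart. Core-scaled, 2 were lower and 5 higher (median 0.61), beside a core-scaled median of 1.81 over all genes. Tgfbr1, the receptor chain through which TGF-beta sustains microglial identity, had a mean of 6.93 ± 4.43 FPKM in nerve and 85.4 ± 20.9 in microglia (SD, n = 4 each), a difference of −3.55 ± 0.36 (adjusted p = 0.000682). Mef2c, a transcription factor active in microglia, differed by −3.34 ± 0.47 (adjusted p = 0.0016). Cebpb, a factor of granulocytes and monocytes, was higher by 1.65 ± 0.30 (adjusted p = 0.00362), with 414.9, 312.6, 183.2 and 188.6 FPKM in nerve against 96.5, 84.3, 58 and 95.7 in microglia. Klf2, a factor of circulating leukocytes, was higher by 2.82 ± 0.45 (adjusted p = 0.00233). Over 33 transcription factors of tissue identity tested, 8 were higher and 13 lower, which became 14 and 4 core-scaled. Over all genes the core-scaled counts were 6652 higher and 232 lower of 11086.

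The disease-associated program was stronger in microglia. Of 28 disease-associated genes tested, 22 were lower in nerve and 2 were higher (median −3.21), and without the 3 libraries that stand apart 23 were lower and 3 higher. Trem2, the lipid-sensing receptor that drives this program, had 0, 91.5, 131.95 and 13.2 FPKM in nerve and 1570, 1538, 1509 and 578.2 in microglia (−5.88 ± 1.32, adjusted p = 0.00824). Nerve libraries 2 and 3 held most of the nerve signal, no nerve library reached a microglial one, and without nerve library 1, 2 or 3 the difference was −4.43, −6.61 and −6.78. Apoe, the lipid carrier, was among the strongest transcripts of microglia, with 31001, 29089, 29428 and 12493 FPKM, against 379.7, 2550, 2711 and 931.7 in nerve (−4.26 ± 0.67, adjusted p = 0.00212). Spp1, which encodes the secreted matrix protein osteopontin, had 22.4, 182, 603.3 and 17 FPKM in nerve and 9606, 7581, 6451 and 2358 in microglia (−6.13 ± 1.05, adjusted p = 0.00286). Nerve libraries 1 and 4 were low and library 3 was high for Spp1, and leaving out nerve library 1, 3 or 4 gave −5.52, −7.08 and −5.39. Gpnmb, a transmembrane glycoprotein of lipid-laden phagocytes, had 0, 348.9, 36.6 and 13.5 FPKM in nerve and 2078, 1883, 1074 and 530.6 in microglia (−5.87 ± 1.45, adjusted p = 0.0124). Nerve library 2 was close below microglial library 4 for it, and without nerve library 1 or 2 the difference was −4.41 and −7.23. Core-scaled differences were −3.82 for Trem2, −1.69 for Apoe and −3.58 for Spp1 and −3.81 for Gpnmb, all still called. Over the whole list core scaling left 11 lower and 6 higher (median −0.66).

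The 2 members that ran the other way were Cybb and Ccl6. Cybb, the catalytic chain of the phagocyte NADPH oxidase, had 490.9, 320.4, 527.3 and 247.3 FPKM in nerve and 133.5, 94.3, 98.8 and 203.7 in microglia (1.58 ± 0.32, adjusted p = 0.00565), but a fit of all 51 non-grafted libraries gave an adjusted p of 0.0978. Microglial library 4, which carries neutrophil RNA, was the highest of the microglial libraries for it. Ccl6, a chemokine of myeloid cells, was higher by 1.10 ± 0.26 (adjusted p = 0.00993), and with the same FPKM sum its difference of 0.63 did not pass (adjusted p = 0.145). Clec7a, the beta-glucan receptor dectin-1, was lower by 2.49 on the log2 scale (SE 0.52, adjusted p = 0.00597), but its core-scaled difference was 0.06. Galectin-3, encoded by Lgals3, was at 1005, 967.5, 900.4 and 941.9 FPKM in nerve and 1082, 838, 579.4 and 622.9 in microglia, a difference of 0.33 ± 0.25 (adjusted p = 0.314) that became −0.14 with the same FPKM sum. The groups overlapped for Lgals3.

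Lysosomal genes fell almost as a block: 27 of 29 tested were lower in nerve and none was higher (22.9% of all genes were lower), with the same counts without the 3 libraries that stand apart. Their median difference was −2.66. Core-scaled it was −0.12, with 5 lower and 3 higher, so relative to core macrophage genes the list as a whole was near 0. Ctss and Lgmn stand in both lists, so the lysosomal list is not independent of that scale. Ctsd, an aspartic protease, had a mean of 1487 ± 1122 FPKM in nerve and 19640 ± 8868 in microglia (SD, n = 4 each), a difference of −3.96 ± 0.68 (adjusted p = 0.00299). Lamp1, a membrane protein of lysosomes, differed by −2.02 ± 0.24 (adjusted p = 0.00113) and turned to 0.55 core-scaled. Of 20 genes of lipid handling, 12 were lower and 2 higher (median −1.56), and core-scaled 3 were lower and 7 higher (median 0.92, against 1.81 over all genes). Abca1, the cholesterol exporter, had 2.72, 5.02, 1.46 and 1.63 FPKM in nerve and 16.1, 22.5, 21.4 and 10.1 in microglia (−2.36 ± 0.39, adjusted p = 0.0025). Lpl, the lipase that frees fatty acids, was lower by 4.65 on the log2 scale (SE 0.73, adjusted p = 0.00216), and without nerve library 1 or 3 by 3.95 and 5.28. Among 17 genes for the uptake of dying cells, 12 were lower and 2 higher, or 4 and 3 core-scaled. The bridging-ligand receptor Axl differed by −3.28 ± 0.40 (adjusted p = 0.00114), and Mertk, its relative, by −4.27 ± 0.61 (adjusted p = 0.00163) with nerve libraries 1 and 2 listed at 0.

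**Figure D2:**
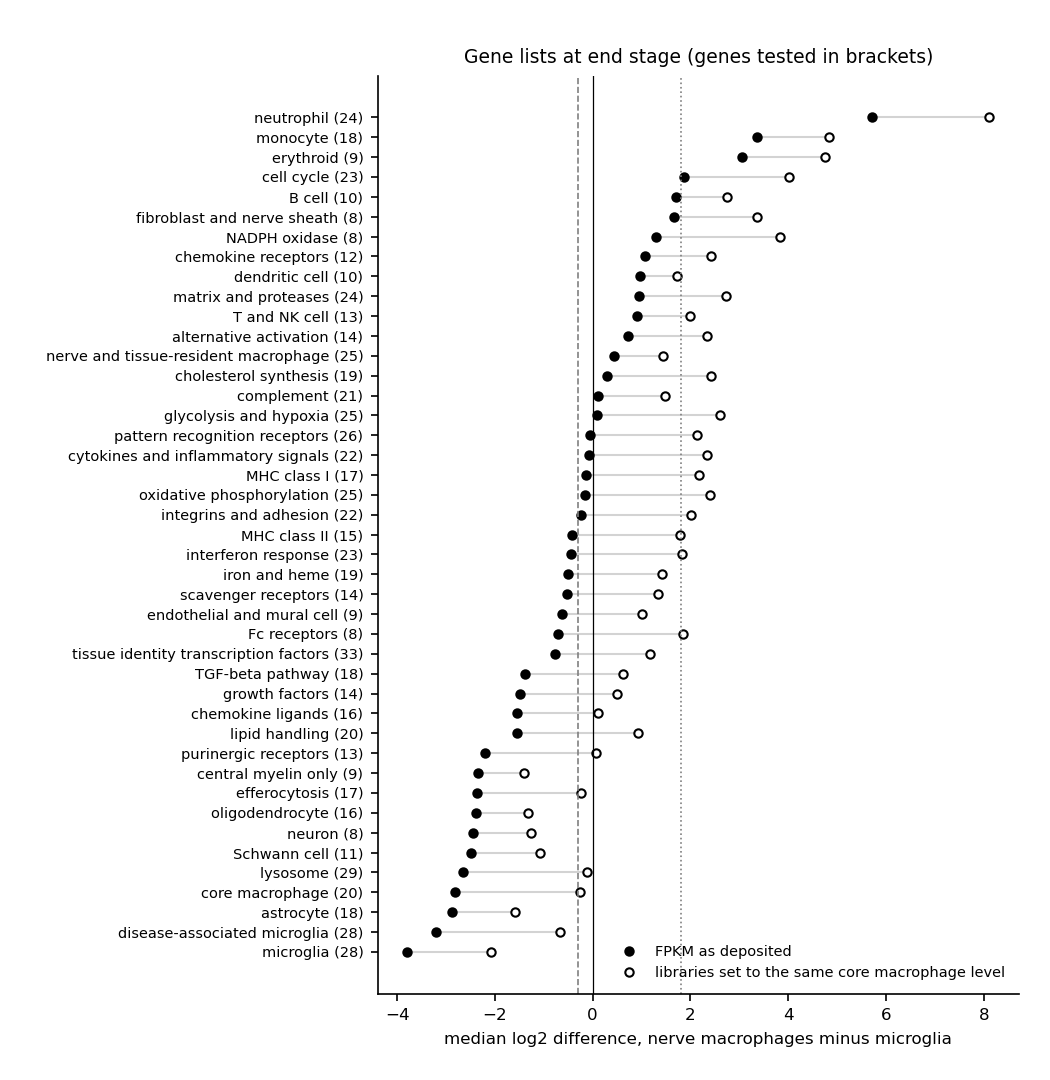
Median difference, nerve minus microglia on the log2(FPKM + 1) scale, for lists with at least 8 genes tested, as deposited (filled) and with libraries set to the same core macrophage level (open). The dashed and dotted lines give the medians of all genes, −0.30 and 1.81, and the microglial list lay at −3.80 and −2.08 against 5.71 and 8.11 for the neutrophil list.

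General macrophage genes divided into those lower in nerve and those at a like level. Of 20 core macrophage markers 16 were lower and 1, Spi1, was higher (median −2.81). Without the 3 libraries that stand apart 18 were lower and Spi1 was again the 1 that was higher. Core-scaled, 7 were lower and 6 higher. That scaling sets the mean level of this same list equal in all libraries, so such a balance was fixed in advance. Csf1r, the receptor for the growth factor on which macrophages depend, had 128.6, 141.1, 185.2 and 74.2 FPKM in nerve and 1198, 1232, 1364 and 609.3 in microglia (−3.06 ± 0.34, adjusted p = 0.00096). Cd68, a lysosomal glycoprotein of phagocytes, had 130.3, 182.2, 197 and 136.2 FPKM in nerve and 1558, 1424, 1345 and 545.8 in microglia (−2.82 ± 0.34, adjusted p = 0.00114). Neither gene overlapped between the groups, and microglial library 4 was the lowest microglial library for both. Aif1, which encodes the cytoskeletal protein Iba1, had 52.1, 62.3, 71 and 25.3 FPKM in nerve and 532.3, 444.2, 449.5 and 138.4 in microglia (−2.80 ± 0.46, adjusted p = 0.0025). Adgre1, which encodes the F4/80 antigen, was lower by 1.35 on the log2 scale (SE 0.30, adjusted p = 0.00818) and turned to 1.18 core-scaled. C1qa, a chain of the first complement component, differed by −4.30 ± 0.63 (adjusted p = 0.00173), and by −3.69 without nerve library 1.

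The gene for CD11b itself did not differ beyond its error. Itgam had 169.4, 220.1, 240 and 97.4 FPKM in nerve and 178.4, 169.4, 160.8 and 124.1 in microglia, a difference of 0.13 ± 0.29 (adjusted p = 0.745). The groups overlapped, and the sign turned to −0.34 with the same FPKM sum and to −0.03 without nerve library 3. Tyrobp, the adaptor of many myeloid receptors, was likewise not called, at −0.48 ± 0.39 (adjusted p = 0.36), with 2952, 3606, 3063 and 1814 FPKM in nerve, although it was 2.09 core-scaled and −0.65 (adjusted p = 0.0403) without the 3 libraries that stand apart. Spi1, which encodes the myeloid factor PU.1 shared by macrophages and neutrophils, had 340.4, 378, 331.2 and 276.9 FPKM in nerve against 120.01, 121.97 and 159.55 in microglial libraries 2 to 4 and slightly less in library 1. Its difference of 1.35 ± 0.18 passed (adjusted p = 0.0014), and microglial library 4 was again the highest microglial library, but a fit of all 51 non-grafted libraries gave an adjusted p of 0.0504. Irf8, a factor of the monocyte and macrophage branch rather than the granulocyte branch, was lower by 2.02 on the log2 scale (SE 0.23, adjusted p = 0.000998), and turned to 0.53 core-scaled. It was even over the nerve libraries, with 63.5, 54.1, 53.8 and 53.5 FPKM, against 145.9 to 288.9 in microglia.

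Neutrophil genes were the highest in nerve. Of 24 tested, 23 were higher and none was lower (median 5.71, core-scaled 8.11), and the count was again 23 of 24 without the 3 libraries that stand apart, with a median of 7.25. S100a8 and its partner S100a9 encode the 2 chains of calprotectin, the main cytosolic protein of neutrophils. S100a8 had 73049, 71188, 80760 and 44054 FPKM in nerve and 293.2, 806.9, 207.3 and 20413 in microglia (6.03 ± 1.26, adjusted p = 0.00608). Microglial library 4 was far above the other microglial libraries but below every nerve library, and without it the difference was 7.48; without microglial library 1 or 3 it was 5.44 and 5.28. The surface antigen Ly6g, which defines mouse neutrophils, had 284.9, 233.5, 314.8 and 70.4 FPKM in nerve and 1.41, 2.33, 1.08 and 48.6 in microglia (5.20 ± 0.96, adjusted p = 0.00373; 6.27 without microglial library 4).

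Granule genes of neutrophil precursors were present as well. Elane and Mpo encode neutrophil elastase and myeloperoxidase, whose transcripts are made mostly at the promyelocyte stage, before neutrophils leave the marrow. Mpo (chr11:87793784-87804411, mm10) had 203.9, 779.5, 852.6 and 761 FPKM in nerve and 0, 12.9, 0.17 and 94.9 in microglia (6.50 ± 1.32, adjusted p = 0.00552). It headed the list of rises with non-overlapping groups, and leaving out microglial library 1, 3 or 4 gave 5.61, 5.69 and 7.81. Elane had 416, 671.3, 981.6 and 1381 FPKM in nerve and 0.3, 17.3, 0.96 and 171.8 in microglia (6.37 ± 1.34, adjusted p = 0.00622), with 5.42, 5.62 and 7.77 without microglial library 1, 3 or 4. Nerve library 1 was the lowest for both genes. Camp and Ltf, which encode secondary granule proteins of later stages, were higher by 6.22 ± 1.23 and 5.95 ± 1.23 (adjusted p = 0.00496 and 0.00596), and by 7.64 and 7.39 without microglial library 4. Without microglial library 1 they were 5.59 and 5.32, and without library 3 they were 5.44 and 5.27. Mmp9, the gelatinase of neutrophil granules, was higher by 5.92 ± 1.28 (adjusted p = 0.00716), with 5.14, 5.29 and 7.45 without microglial library 1, 3 or 4.

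Promoters of neutrophil genes and of the MHC class II genes described below are shown for members that were higher in nerve. RefSeq promoters (build GRCm38.p6) were matched by symbol and the 250 bases before the start were searched on both strands for the PU.1 core GAGGAAGT and for the inverted CCAAT box GATTGG of class II promoters, neither of which contains the other. Among 21 neutrophil genes with a promoter entry, 6 (28.6%) held GAGGAAGT, as did 755 of 27025 genes with an entry (2.79%), 0 of 19 microglial genes and 1 of 13 core macrophage genes. GATTGG stood in 8 of 11 class II genes (72.7%), in 4486 of 27025 genes (16.6%) and in 1 of 21 neutrophil genes. These are descriptions of letters in a window, with no test. Each sequence below runs 5′ to 3′ along the gene's strand, with the motif on either strand in capitals. They are Mpo (chr11:87793534-87793783, plus strand) and S100a8 (chr3:90668821-90669070, plus strand) for the first motif, and H2-Eb1 (chr17:34305617-34305866, plus strand) and H2-Aa (chr17:34287824-34288073, minus strand) for the second, which H2-Eb1 holds in both orientations.
Mpo: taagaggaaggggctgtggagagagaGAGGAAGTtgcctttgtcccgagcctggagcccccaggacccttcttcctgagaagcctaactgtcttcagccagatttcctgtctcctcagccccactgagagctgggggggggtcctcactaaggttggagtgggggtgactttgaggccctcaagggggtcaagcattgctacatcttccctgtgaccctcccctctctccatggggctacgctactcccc
S100a8: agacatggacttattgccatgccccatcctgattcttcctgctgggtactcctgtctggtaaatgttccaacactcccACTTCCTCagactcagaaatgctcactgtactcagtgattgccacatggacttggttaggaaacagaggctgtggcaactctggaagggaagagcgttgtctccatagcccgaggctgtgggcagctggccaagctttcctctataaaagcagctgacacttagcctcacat
H2-Eb1: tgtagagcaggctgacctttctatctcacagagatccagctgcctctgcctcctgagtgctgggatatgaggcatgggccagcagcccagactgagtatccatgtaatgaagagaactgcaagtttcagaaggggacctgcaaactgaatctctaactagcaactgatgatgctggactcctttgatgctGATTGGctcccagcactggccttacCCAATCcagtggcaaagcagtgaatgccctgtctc
H2-Aa: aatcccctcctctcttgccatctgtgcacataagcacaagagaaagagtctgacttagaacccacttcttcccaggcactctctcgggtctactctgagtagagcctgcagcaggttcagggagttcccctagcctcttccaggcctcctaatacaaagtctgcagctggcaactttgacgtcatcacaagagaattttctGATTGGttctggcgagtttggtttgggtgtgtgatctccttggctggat

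Monocyte genes rose with those of neutrophils. Of 18 tested, 14 were higher and none was lower (median 3.35, core-scaled 4.84), and all 18 were higher without the 3 libraries that stand apart. Ly6c2, the antigen of inflammatory monocytes, had 265.6, 208.8, 203.8 and 151.1 FPKM in nerve and 1.54, 4.43, 2.14 and 68.7 in microglia (4.78 ± 0.90, adjusted p = 0.00405). Ccr2, the chemokine receptor that brings monocytes into tissue, had 153, 83.4, 148.5 and 65.6 FPKM in nerve and 1.75, 2.81, 1.20 and 51.6 in microglia (4.18 ± 0.90, adjusted p = 0.00682). Both were separate between the groups, with microglial library 4 close below the nerve libraries, and without it the differences were 5.86 and 5.23. Plac8, expressed in monocytes and in granulocytes, was higher by 5.13 ± 0.91 (adjusted p = 0.00321; 6.24 without microglial library 4). F10, the coagulation factor X gene, was higher by 3.63 ± 0.77 (adjusted p = 0.00638; 4.49 without microglial library 4). Monocyte and neutrophil sums were high in the same libraries, and their shares in a gene that both cells express were not tested.

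Genes of MHC class II presentation split. Of 15 tested, 5 were higher and 5 lower in nerve (median −0.43), and 5 were higher and 7 lower of 14 without the 3 libraries that stand apart. Core-scaled, 9 of the 15 were higher and none lower. Their core-scaled median of 1.79 was near the 1.81 of all genes, of which 6652 of 11086 were higher on that scale. The 5 higher ones as deposited were the genes of the class II chains H2-Ab1, H2-Aa and H2-Eb1, the invariant chain Cd74 and the activator Ciita. H2-Ab1 (chr17:34263227-34269418, mm10), the beta chain of I-A, had 684.2, 483.4, 627.7 and 533 FPKM in nerve and 99, 119.6, 82 and 153.7 in microglia (2.37 ± 0.23, adjusted p = 0.00066). H2-Eb1, the beta chain of I-E, had 324.2, 183.8, 232.5 and 210 FPKM in nerve and 19.4, 30.1, 16.1 and 62.2 in microglia (3.02 ± 0.39, adjusted p = 0.00123). H2-Aa, the alpha chain of I-A, was higher by 2.32 ± 0.31 (adjusted p = 0.00135). No library of one group entered the range of the other for these 3 genes, nerve library 2 was the lowest nerve library, and microglial library 4 was the highest microglial one. Cd74, the invariant chain, was higher by 1.51 ± 0.25 (adjusted p = 0.00247), but a fit of all 51 non-grafted libraries gave an adjusted p of 0.095. Ciita, the master activator of class II, was low, at 3.04, 0.65, 5.62 and 2.70 FPKM in nerve and 0.06 to 0.86 in microglia, and its call (1.45 ± 0.44, adjusted p = 0.0282) was lost without nerve library 1 or 3 (1.39 and 1.15) or without microglial library 1, 2 or 3 (1.34, 1.45 and 1.38).

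The class II genes that were lower act inside the cell or in costimulation. Ctss, the protease that trims the invariant chain, had 514.8, 673.1, 1135 and 558.2 FPKM in nerve and 9014, 8072, 8572 and 3621 in microglia (−3.33 ± 0.39, adjusted p = 0.00113). Cd86, a costimulatory ligand for T cells, had 19.5, 26.8, 24.5 and 21.2 FPKM in nerve and 143, 125.9, 158.6 and 72.5 in microglia (−2.34 ± 0.26, adjusted p = 0.000898). H2-DMa, a chain of the peptide-loading chaperone, was lower by 1.60 on the log2 scale (SE 0.37, adjusted p = 0.0091). Groups were separate for all 3 genes, and core-scaled the 3 differences were −0.76, 0.18 and 0.95. Of 10 B cell markers tested 3 were higher and none was lower, with sums of 80.8, 102.3, 28.2 and 467.4 FPKM in nerve and 5.92 to 48.9 in microglia. B cells express class II genes too, and the part of these cells in the class II differences was not tested.

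**Figure D3:**
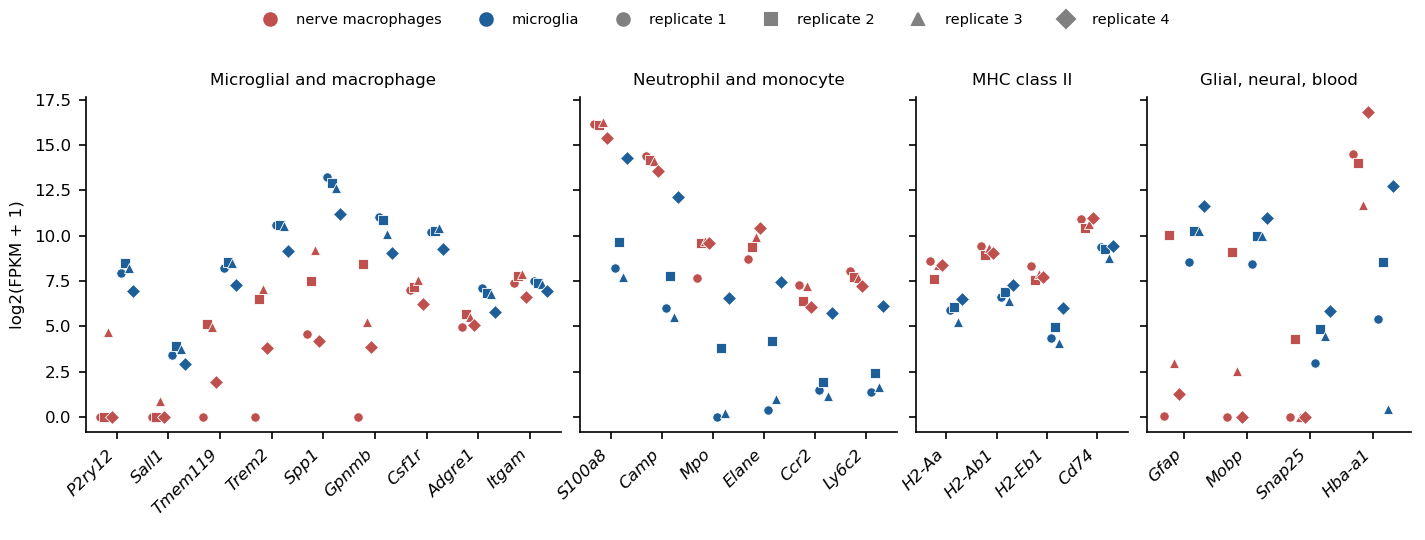
Level on the log2(FPKM + 1) scale of selected genes in each of the 4 nerve libraries (red) and 4 microglial libraries (blue) at end stage, with the marker shape giving the replicate. S100a8 lay between 44054 and 80760 FPKM in nerve with microglial library 4 at 20413, P2ry12 was above 0 in 1 of 4 nerve libraries, and Itgam overlapped between the groups.

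Most genes of the oxidative burst were higher in nerve, and more chemokine ligands were lower than higher. Of 8 NADPH oxidase genes tested, 6 were higher in nerve and 1 was lower (median 1.29, core-scaled 3.84), with the same counts without the 3 libraries that stand apart. Ncf1, the p47 organizer of the complex, had 264.2, 248.9, 223.8 and 129.9 FPKM in nerve and 52.2, 47.2, 59.3 and 99.8 in microglia (1.74 ± 0.30, adjusted p = 0.00294). Neutrophils express this complex strongly, and the part of these cells in the differences was not tested. Microglial library 4 was the highest microglial library for 5 of the 8 genes (62.5%, against 47.9% of all genes tested), Ncf1 and Cybb among them. It was the lowest for 2, Cyba among them. Of 16 chemokine ligands tested, 8 were lower and 1, Ccl6, was higher (median −1.55, core-scaled 0.12). Ccl4, which attracts monocytes and T cells, had 7.08, 12.6, 38.6 and 2.35 FPKM in nerve and 636.8, 510.6, 334.1 and 308 in microglia (−5.28 ± 0.64, adjusted p = 0.00114; −5.90 without nerve library 3). Ccl12, a monocyte chemoattractant, was listed at 0, 8.12, 8.53 and 0 FPKM in nerve and at 302.3, 204.7, 140.3 and 86.5 in microglia (−5.77 ± 0.82, adjusted p = 0.00163). Among 12 chemokine receptors, 5 were higher, Cxcr2, Cxcr4, Ccr3, Ccr2 and Ccr1, and 2 were lower, Cx3cr1 among them. Il1b, the inflammatory cytokine, had 179.2, 239, 135.9 and 17.8 FPKM in nerve and 19.9, 10.5, 10.1 and 26.2 in microglia. Its groups overlapped, since nerve library 4 lay below microglial libraries 1 and 4, and its call (2.65 ± 0.73, adjusted p = 0.0195; 3.46 without nerve library 4) was lost without nerve library 1 or 3 (2.38 and 2.51) or microglial library 2 or 3 (2.47 and 2.46).

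Markers of resident macrophages of nerve and other tissues gave a mixed picture. Of 25 tested, 6 were higher and 7 lower (median 0.43), or 8 and 3 core-scaled (median 1.44), and 5 and 8 of 20 without the 3 libraries that stand apart. The higher ones, Mgl2, Clec10a, Cd209a, F13a1, Retnla and Fcna, include lectins and coagulation genes that monocytes, monocyte-derived macrophages or dendritic cells express too. Cd209a, a lectin of monocyte-derived dendritic cells, had 54.6, 15.2, 52.2 and 14.1 FPKM in nerve and 0.3, 2.66, 0.66 and 9 in microglia (3.29 ± 0.71, adjusted p = 0.00693). Mrc1, the mannose receptor of resident macrophages, was near the detection limit in both tissues, with 2.07, 2.21, 0.23 and 7.97 FPKM in nerve and 0.26, 0.49, 0.45 and 1.67 in microglia (0.98 ± 0.56, adjusted p = 0.2). Lyve1, a hyaluronan receptor of some resident macrophages, did not reach the filter on low values. Retnla, a secreted protein of alternatively activated macrophages, had 470.6 FPKM in nerve library 4 and 20.3, 8.78 and 6.35 in nerve libraries 1 to 3. Its call (3.69 ± 1.17, adjusted p = 0.0336) was lost when nerve library 1 or any single microglial library was left out (3.34 to 3.92), and without nerve library 4 or 3 the difference was 2.36 and 4.36. F13a1 overlapped between the groups, with 125.9 FPKM in microglial library 4 against 81.8 to 238 in nerve, and its difference (4.16 ± 1.10, adjusted p = 0.0165) was 5.47 without microglial library 4, 3.53 without microglial library 1 and no longer called at 3.79 (adjusted p = 0.0514) without microglial library 2. Ms4a7, a membrane protein of border and peripheral macrophages that reactive microglia also express, had 11.1, 31.5, 19.7 and 23.7 FPKM in nerve and 181.8, 145.8, 73.1 and 44 in microglia (−2.20 ± 0.46, adjusted p = 0.00633; 0.31 core-scaled).

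RNA of neural cells was lower in nerve. All 16 called astrocyte genes of 18 tested, all 13 called oligodendrocyte genes of 16 and all 6 called neuronal genes of 8 were lower, with medians of −2.88, −2.39 and −2.44. Without the 3 libraries that stand apart, 15 of 18, 11 of 14 and 7 of 8 were lower. Gfap, the intermediate filament of astrocytes, was at 0.03, 1046, 6.95 and 1.35 FPKM in nerve and 372.3, 1247, 1223 and 3223 in microglia. Nerve library 2 overlapped the microglial range, and the difference of −6.61 ± 1.86 (adjusted p = 0.0213) was −8.76 without it. The call was lost without nerve library 1, 3 or 4 (−5.43, −6.42 and −5.83) or microglial library 2, 3 or 4 (−6.58, −6.59 and −6.12), with adjusted p just above the threshold. Mobp, a central myelin protein, was at 0, 551.9, 4.84 and 0 FPKM in nerve and 349.5, 1031, 1015 and 2041 in microglia (−6.95 ± 1.77, adjusted p = 0.0142), with −9.01 without nerve library 2 and −5.98 without nerve library 1 or 4. Mog, an oligodendrocyte surface protein, was listed at 0 in all 4 nerve libraries and at 3.51, 8.33, 5.02 and 11.6 FPKM in microglia (adjusted p = 0.0012). The microglial libraries thus held more neural RNA than nerve libraries 1, 3 and 4, and microglial library 4 had the most. Nerve library 2 lay above microglial library 1 in the astrocyte (2039 against 793.5), oligodendrocyte (3140 against 1877) and neuronal sums (50.3 against 28.5).

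Schwann cell RNA was scarce in the nerve libraries although they came from nerve. Of 24 Schwann cell genes, 11 were tested, and 8 of these were lower and 2 higher in nerve, or 7 and 3 without the 3 libraries that stand apart. The lower ones, Mbp, Mal, Pllp, Pmp22, Egr2, S100b and Cmtm5 among them, include genes that oligodendrocytes, astrocytes or macrophages express as well. Pmp22, a protein of peripheral myelin with wider expression, had 14.2, 12.1, 25.1 and 13.1 FPKM in nerve and 261.4, 293.4, 267 and 166.6 in microglia (−3.88 ± 0.27, adjusted p = 0.000367). Of 8 fibroblast and nerve sheath genes tested, 3 were higher and 1 was lower, and Dcn, a matrix proteoglycan, had 44.6, 6.73, 1.77 and 1.73 FPKM in nerve against 0.39 to 1.31 in microglia (1.97 ± 0.82, adjusted p = 0.0858). It passed without nerve library 4 (2.44, adjusted p = 0.0492), core-scaled (3.49, adjusted p = 0.00795) and in the fit of all 51 non-grafted libraries (adjusted p = 0.0399), and without nerve library 1 it was 1.08 (adjusted p = 0.0911).

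Erythroid and cell cycle genes leaned towards nerve. Of 9 erythroid genes tested, 3 were higher and none was lower. Hba-a1, an alpha globin whose near-identical copy Hba-a2 shares its reads, had 23123, 16550, 3286 and 115143 FPKM in nerve and 41.8, 367.1, 0.36 and 6874 in microglia. Nerve library 3 lay below microglial library 4, and the difference of 7.47 ± 2.24 (adjusted p = 0.0275) was 9.46 without microglial library 4, 8.32 without nerve library 3, and no longer called without nerve library 1 or 4 (7.39 and 6.61) or microglial library 1 or 3 (7.01 and 5.35). Of 23 cell cycle genes tested, 19 were higher in nerve and none was lower (median 1.87, core-scaled 4.01), and 20 of 23 were higher without the 3 libraries that stand apart. Cdk1, the kinase that starts mitosis, had 33, 27.4, 25.1 and 73.2 FPKM in nerve and 8.48, 5.44, 7.22 and 13.6 in microglia (2.00 ± 0.38, adjusted p = 0.00426). The groups were separate, and nerve library 4, the one richest in hemoglobin, was the highest for 22 of the 23 genes. Which cells carried these transcripts was not tested.

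Of 2 further genes among the largest falls, Pdcd1, the gene of the inhibitory receptor PD-1, had 0, 0, 5.55 and 0 FPKM in nerve and 85.5, 63.9, 81.7 and 20.4 in microglia (−5.13 ± 0.69, adjusted p = 0.00143; −5.81 without nerve library 3). It followed nerve library 3, as P2ry12 and Sall1 did. Spint1, a protease inhibitor gene whose feature in the table spans chr2:119237360-119884473 and so overlaps neighbouring genes, was listed at 0 in all 4 nerve libraries and at 57.4, 43.9, 56.4 and 22 FPKM in microglia (adjusted p = 0.000279). Mouse Sod1, the endogenous counterpart of the transgene, had 19.6, 13.1, 16.9 and 44.9 FPKM in nerve and 34.1, 33.9, 29.2 and 39.2 in microglia. Nerve library 4 was above every microglial library and the other 3 were below, and the difference of −0.66 ± 0.34 was not called (adjusted p = 0.158), was 1.81 core-scaled, and passed at −1.01 (adjusted p = 0.00741) without nerve library 4 and at −1.12 (adjusted p = 0.0101) with the same FPKM sum.

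How genes ranked in the libraries that stand apart is given as counts, chosen after the data were seen and with no test; the cellular source of the genes was not tested. Microglial library 4 was the highest microglial library for 1364 of the 1511 genes higher in nerve (90.3%), against 47.9% of all genes tested. It was the lowest microglial library for 1462 of the 2492 genes lower in nerve (58.7%), against 32.1% of all. By list, it was the highest of its group for 23 of 24 neutrophil, 15 of 18 monocyte, 17 of 18 astrocyte and 14 of 16 oligodendrocyte genes, and the lowest for 27 of 28 microglial, 19 of 20 core macrophage, 25 of 28 disease-associated and 26 of 29 lysosomal genes. Among the nerve libraries, library 3 was the highest for 16 of 28 microglial, 13 of 20 core macrophage and 20 of 29 lysosomal genes, and library 2 for 14 of 18 astrocyte and 10 of 16 oligodendrocyte genes. Of the genes lower in nerve, 516 (20.7%) were lowest in microglial library 4 and highest in nerve library 3, as Ctss was, against 974 (8.94%) of all genes tested. Highest in microglial library 4 and in nerve library 2, as Gfap and Mobp were, were 317 of the lower genes (12.7%) and 1617 (14.8%) of all genes, so this share was not above that of all genes. Of the 232 genes that were lower on both scales, 178 (76.7%) were lowest in microglial library 4 and 39 were highest in it. MHC class II genes did not go one way, with 8 of 15 lowest and 5 highest in that library.

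The difference between the tissues was then compared with that before symptoms, in a fit of the 15 pre-symptomatic and end-stage libraries. The change is the end-stage difference minus the pre-symptomatic one, so a negative change means that nerve moved down relative to microglia. It passed for 2435 of 11633 genes (20.9%), up for 1151 (9.89%) and down for 1284 (11%). Median-ratio scaling turned the balance to 1685 up and 821 down, and core scaling to 3906 up and 75 down. It passed for 1601 and 1578 genes without pre-symptomatic microglial library 1 or 2. Disease-associated genes moved down, with 23 of 28 called and none up (median −3.60). So did 22 of 29 lysosomal, 18 of 23 interferon response, 10 of 15 class II and 7 of 8 NADPH oxidase genes. The shift was not particular to these lists. Core macrophage genes moved down too, with 11 of 20 called and none up (median −2.45). So did 10 of 28 markers of resident macrophages (median −2.59). Of 28 microglial identity genes 1 was called, down, with a median change of −0.92, and of 24 neutrophil genes none was called, with a median of −1.93, so a lack of calls is no sign that these genes stayed level. Of 18 astrocyte genes, 12 moved up (median 4.00). The comparison shares its 8 end-stage libraries with the results above, and stage, age and the pooling of 2 mice in pre-symptomatic nerve libraries cannot be told apart.

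For the genes that moved down most, the microglial libraries differed more between stages than the nerve libraries did. Lgals3 was at 760.4, 757.6 and 1304 FPKM in the 3 pre-symptomatic nerve libraries and at 17.4, 3.14, 7.90 and 8.64 in the 4 microglial ones, against the end-stage values of 900.4 to 1005 and 579.4 to 1082. Its change was −6.33 ± 0.52 (adjusted p = 1.09e-05), with microglia low before symptoms and near nerve at end stage. Cybb went from 2.43, 0.47, 2.35 and 2.75 FPKM in pre-symptomatic microglia to 94.3 to 203.7 at end stage while nerve held between 247.3 and 552, a change of −5.86 ± 0.49 (adjusted p = 1.14e-05). Spp1 lay between 4.98 and 85.8 FPKM in pre-symptomatic microglia and between 2358 and 9606 at end stage, while nerve ranged from 16.4 to 327.3 before symptoms and from 17 to 603.3 at end stage (change −7.91 ± 1.65, adjusted p = 0.00418). Single nerve libraries moved this value, from −6.73 without pre-symptomatic nerve library 2 to −8.87 without end-stage nerve library 3. Ms4a7 stayed under 1 FPKM in every pre-symptomatic microglial library and changed by −7.31 ± 0.91 (adjusted p = 0.000237; −8.38 without pre-symptomatic nerve library 1). The lysozyme feature Lyz2 // Lyz1, 2 near-identical genes counted together, changed by −6.23 ± 0.60 (adjusted p = 3.36e-05).

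H2-Ab1 was spread widely over the pre-symptomatic nerve libraries, on both sides of the end-stage values. It had 352.7, 4155 and 2654 FPKM in pre-symptomatic nerve and 7.25, 4.38, 27.3 and 14.8 in microglia, and it changed by −4.68 ± 0.91 (adjusted p = 0.00297), with −5.76 without pre-symptomatic nerve library 1 and −3.98 without library 2. Apoe lay between 2372 and 2636 FPKM in pre-symptomatic microglia and between 12493 and 31001 at end stage, but its change of −3.19 ± 1.04 (adjusted p = 0.0409) was lost under 5 of the pseudocount, filter and scaling alternatives (core-scaled −0.66) and without most single libraries (−2.51 without pre-symptomatic nerve library 2, −4.25 and still called without library 1). Csf1r and P2ry12 changed by −1.89 ± 0.83 and −1.34 ± 1.57, which were not called (adjusted p = 0.122 and 0.59) and turned to 0.63 and 0.65 core-scaled. S100a8 was at 24808 to 62869 FPKM in pre-symptomatic nerve and at 14 to 156.6 in microglia, and its change of −3.75 ± 1.64 was not called (adjusted p = 0.12).

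Among the largest upward changes were genes that neural cells express. Sparcl1, Atp1b2 and Acsl6, which astrocytes and other neural cells express and which stand in no marker list here, changed by 5.91 ± 1.44, 5.49 ± 1.11 and 5.36 ± 0.96 (adjusted p = 0.00984, 0.00358 and 0.00174). The feature E030003E18Rik // Aldh1a1 changed by 5.40 ± 1.25 (adjusted p = 0.00776). Without end-stage nerve library 2, which carries glial RNA, these values were 4.83, 4.69, 4.58 and 4.58 in the same order. Sparcl1 had a mean of 1997 ± 255.7 FPKM in pre-symptomatic microglia and 160.3 ± 161.3 at end stage (SD, n = 4 each). Astrocyte sums in microglial libraries ran from 10260 to 12910 before symptoms and from 793.5 to 7319 at end stage, central myelin sums from 5810 to 7207 and from 373.4 to 2145, and core macrophage sums from 3070 to 14180 and from 18950 to 47670. In nerve, core macrophage sums lay between 6051 and 10530 in the earlier mice and between 6063 and 10570 in the later ones. The microglial libraries thus held less neural RNA and more macrophage RNA at end stage, and the part of this shift in the changes above was not tested. Gfap changed by 1.95 ± 2.21, which was not called (adjusted p = 0.577) and turned to −0.20 without end-stage nerve library 2.

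**Figure D4:**
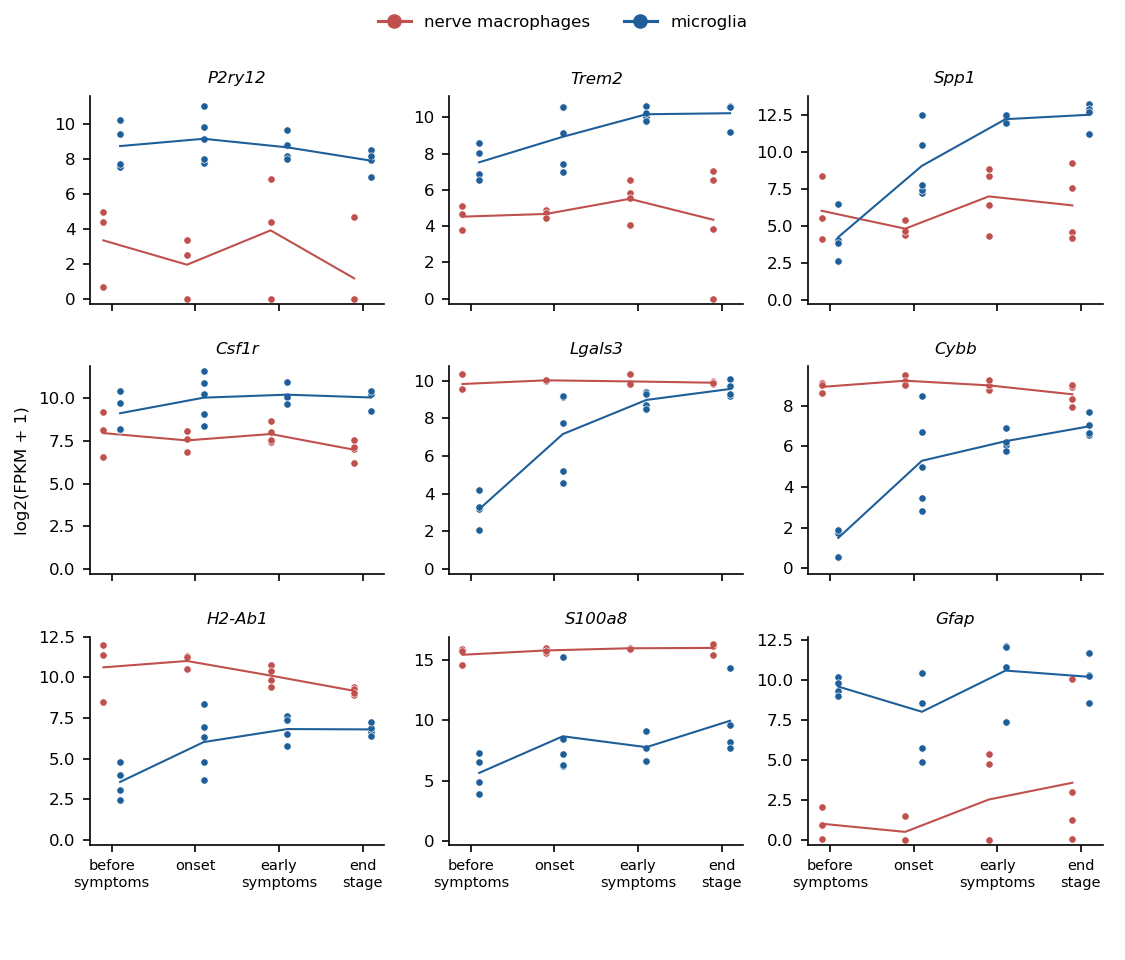
Log2(FPKM + 1) of named genes in nerve libraries (red) and microglial libraries (blue) of non-grafted G93A mice at 4 stages, with points for libraries and lines joining group means; the onset and early symptomatic groups are shown without a test. Lgals3 was at 3.14 to 17.4 FPKM in pre-symptomatic microglia and 579.4 to 1082 at end stage, while nerve at these stages lay between 757.6 and 1304.

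The same comparison was made in other mice, the G93A mice grafted with G93A marrow. Of 10640 genes tested there, 2378 (22.3%) were higher and 2326 (21.9%) lower in nerve, 44.2% in all, and without microglial library 1 of this set 1479 were lower. Of 233 genes named and called in the non-grafted mice, 225 were tested in the grafted mice, all 225 had the same direction and 207 (92%) were called again. Over all genes, 1317 of 1486 higher genes (88.6%) and 1576 of 2273 lower genes (69.3%) were called in the same direction, and 0 and 1 in the opposite one. Neutrophil genes were higher in 24 of 24, monocyte genes in 15 of 17, and microglial genes lower in 25 of 27 (medians 6.69, 4.87 and −4.02). Core macrophage genes were lower in 18 of 20, lysosomal genes in 27 of 29, and class II genes again split, with 5 higher and 7 lower of 15.

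Values in the grafted mice were separated more cleanly for neutrophil genes. S100a8 had 42063, 28891 and 34623 FPKM in nerve and 448.3, 373.7 and 289 in microglia (6.57 ± 0.32, adjusted p = 8.54e-07), with no microglial library near the nerve range. Neutrophil sums in these microglia were 921.3 to 1466 FPKM, and astrocyte sums in these nerve libraries were 5.93 to 53.7. Ly6c2 had 204, 173.1 and 225 FPKM in nerve and 2.26, 3.56 and 2.45 in microglia (5.75 ± 0.26, adjusted p = 6.69e-07). H2-Ab1 had 1058, 391.3 and 384.1 in nerve against 74.7, 83.4 and 92.1 (2.69 ± 0.38, adjusted p = 0.000472), and Cybb differed by 2.20 ± 0.30 (adjusted p = 0.000411). P2ry12 had 1.97, 22.9 and 3.03 FPKM in nerve and 197.6, 110.3 and 185 in microglia (−4.60 ± 0.67, adjusted p = 0.000541; −5.53 without nerve library 2). Trem2 had 7.11, 543.2 and 5.44 FPKM in nerve and 1975, 2781 and 1547 in microglia (−6.06 ± 1.36, adjusted p = 0.00556). Nerve library 2 of this set was the highest for both, the differences for Trem2 without nerve library 1, 2 or 3 were −5.11, −8.14 and −4.94, its call was lost with no filter on low values (adjusted p = 0.0508), and core macrophage sums in these nerve libraries ran from 6745 to 17730. Csf1r differed by −3.05 ± 0.41 (adjusted p = 0.000363), with a core-scaled −0.28 that was not called. Gfap, at 0.23 to 14.2 FPKM in nerve and 242 to 640 in microglia, differed by −6.88 ± 0.77 (adjusted p = 0.000127; −7.88 without nerve library 2 and −6.07 without library 3). Itgam was at 323.2, 329.6 and 263.9 FPKM in nerve and 252.9, 261.8 and 219.8 in microglia, and again was not called (0.32 ± 0.23, adjusted p = 0.29).

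**Figure D5:**
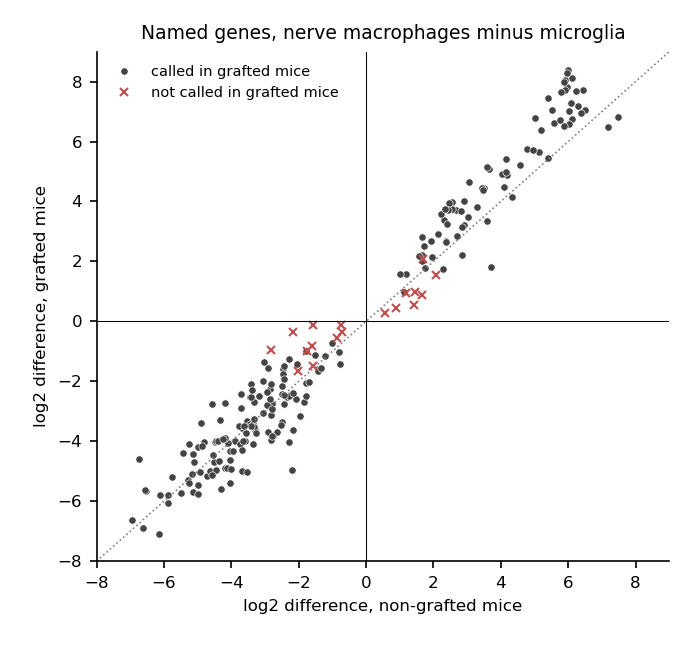
Difference between nerve and microglia on the log2(FPKM + 1) scale for named, called genes, in non-grafted mice (horizontal) and in mice grafted with G93A marrow (vertical), with a dotted line where both are equal and crosses for genes not called in the grafted mice. All 225 genes tested in both sets of mice had the same sign.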

How the data were processed

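RNA of CD11b-selected cells was measured by RNA sequencing in 74 libraries of 21 groups, of which 8 carry the main comparison. Per the labels' protocols each of these came from 1 mouse, so libraries of a group are separate mice, but whether a nerve and a spinal cord library share a mouse is not stated. The deposited values are FPKM per gene, per the file headers, in 1 table for 51 non-grafted and 1 for 23 grafted libraries. Tools listed in the submitters' processing notes are R 3.2.5, DESeq2, SAMtools, Picard and FastQC, and the build is mm10. Aligner, counting and strand use: not given in the sources used here. Overlapping or near-identical genes are therefore uncertain. FPKM hold no read depth, so no counting interval is given.

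Of 58976 features, 35679 without a symbol stayed out of all tests. Values were taken as log2(FPKM + 1) and fitted with limma 3.58.1 (lmFit and eBayes with a trend) in R 4.3.3. Genes with a mean of at least 1 FPKM over the fitted libraries were tested, and adjusted p-values cover all genes tested. Each end-stage comparison was fitted on its own 8 or 6 libraries, and the change between stages on 15. The 2 tables were not compared with each other in level. Scripts were tested on simulated data. Python 3.11.15, pandas 2.3.3, numpy 2.4.6 and matplotlib 3.10.9 made the tables and figures.

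Genes were named by a rule: the 15 largest rises and 15 largest falls among called genes with groups that did not overlap and a mean of at least 5 FPKM in the higher group, up to 6 called members of each list, a fixed set of markers, and the 5 largest changes between stages in each direction. That gave 239 genes, and the text describes part of them; a few are not reported here. The genes, the 47 lists and the comparison itself were chosen with earlier results of these data known. Alternatives were other pseudocounts, filters, scalings, a replicate block, a fit of all 51 non-grafted libraries, leaving out each library, and leaving out 3 libraries together, which was added after the data were seen.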

Additional observations from a re-analysis of the deposited data

Results flagged for a closer look

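Single libraries far from the other 3 of their group were sought by the gap to the nearest library divided by the group's range, against Dixon's 95% critical value. That value was passed in 26 of 152 groups of values, and chance alone passes it in about 1 in 20 groups. Microglial library 4 accounted for 19 of the 26. It was the lowest for Trem2 (ratio 0.960), Cx3cr1 (0.952), Apoe (0.930), Axl (0.893), Gpr34 (0.886), Ctss (0.879), Aif1 (0.866), Cd68 (0.859), Siglech (0.855), Lpl (0.848), Csf1r (0.838) and Lamp1 (0.830). It was the highest for the neutrophil share of FPKM (0.968), the hemoglobin share (0.941), F10 (0.920), Spi1 (0.890), Plac8 (0.886), Ly6g (0.852) and F13a1 (0.831).

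Among the nerve libraries, library 3 stood alone for P2ry12, Sall1 and Pdcd1, where the other 3 were listed at 0 and the ratio was therefore 1.0. Nerve library 1 was high for Irf8 (0.932) and low for Mpo (0.920). Nerve library 4 was low for Mmp9 (0.905) and had the highest FPKM sum (0.834).

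The difference between the tissues differed between stages, by a test of the change itself, for 12 described genes. On the log2 scale the change was −7.91 for Spp1, −7.31 for Ms4a7, −6.79 for Lpl, −6.33 for Lgals3, −6.23 for Lyz2 // Lyz1, −5.86 for Cybb, −4.68 for H2-Ab1 and −3.19 for Apoe. It was 5.91 for Sparcl1, 5.49 for Atp1b2, 5.40 for E030003E18Rik // Aldh1a1 and 5.36 for Acsl6. For Lpl the value went to −6.10 without end-stage nerve library 1, −7.42 without end-stage nerve library 3 and −6.11 without pre-symptomatic nerve library 2.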

How the results depend on the processing

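Of the 65 called genes described at end stage, 55 were called in the same direction under every alternative other than core scaling, 10 lost their call under at least 1 of them (6 when a library was left out), and none reversed; core scaling left 49 called in the same direction, 9 not called and 7 reversed. Core scaling gave 6884 calls at end stage (6652 higher, 232 lower), 3981 changes between stages (3906 up, 75 down) and 7295 calls in grafted mice (7128 higher, 167 lower). The same FPKM sum gave 940 higher and 4373 lower. A mean of at least 5 FPKM, which tests fewer genes, gave 1614 lower at end stage, 1489 lower in grafted mice and 586 upward changes, which were 595 with a pseudocount of 0.1 and 1866 with no filter. Median-ratio scaling gave 821 downward changes. The cause of these shifts was not tested. Without single libraries, end-stage calls ran from 2485 to 4366 (985 to 1593 higher, 1493 to 2773 lower), changes from 1578 to 2762 (760 to 1407 up, 818 to 1476 down) and grafted calls from 3235 to 4744 (1756 to 2327 higher, 1479 to 2417 lower). Core scaling reversed Clec7a (0.064), Adgre1 (1.18), Irf8 (0.53), Tyrobp (2.09), Lamp1 (0.55), H2-DMa (0.95), Cd86 (0.18), Ms4a7 (0.31), Sod1 (1.81) and the changes of Csf1r (0.63) and P2ry12 (0.65). Itgam reversed with the same FPKM sum (−0.34) and ran from −0.027 to 0.40 without single libraries, Lgals3 with the same FPKM sum (−0.14), and the change of Gfap ran from −0.20 (without end-stage nerve library 2) to 3.13 without single libraries. Same-numbered libraries did not deviate together (correlations 0.055, 0.084, 0.184 and 0.020), and nerve library 3 correlated better with microglial library 1 (0.212), so the numbers were not taken to pair samples. With the replicate block, 1338 genes were higher and 2263 lower (3601 in all), and all 65 genes were called in the same direction. FPKM without read depth leave the counting error of low values unknown.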

Other observations

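Further lists at end stage are given as counts, beside 13.9% of all genes higher and 22.9% lower in nerve. Core-scaled counts stand beside 6652 of 11086 genes higher and 232 lower on that scale. Of 26 pattern recognition receptors tested, 11 were higher and 9 lower (median −0.05), or 14 and 2 core-scaled, and of 24 matrix genes and proteases 12 were higher and 8 lower (median 0.95). Of 13 purinergic receptors and related genes, 2 were higher and 8 lower (median −2.21), or 4 and 2 core-scaled, and of 14 growth factors 2 were higher and 8 lower (median −1.49), or 4 and 2 core-scaled. Among 23 genes of the interferon response, end-stage calls were 2 up and 3 down in nerve, while 18 moved down between stages. Among 25 genes of oxidative phosphorylation, end-stage calls were 2 in each direction, while 13 moved up between stages. Glycolysis genes split into 8 higher and 7 lower of 25, and cholesterol synthesis genes into 6 higher and 3 lower of 19. All 3 mast cell and basophil genes tested were higher. Of 13 T and NK cell genes 2 were higher and 1 lower, with sums of 97.9 to 189.8 FPKM in nerve and 18 to 34.9 in microglia.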
